A study of Mus musculus with 24 samples.

Results

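The expression response to Adriamycin was described in 6 of the 12 lymphomas of the series, those whose treated arrays gained the least RNA of the fibroblast feeder layer. For each lymphoma the ADR minus untreated difference was averaged over Col1a1, Col1a2, Col3a1, Fn1, Lox and Bgn, all matrix genes of fibroblasts, and the 6 lymphomas with the lowest averages were taken. Both arrays of lymphomas 1467, 2949, 3802, 1570, 6054 and 7050 therefore entered, which are 12 of the 24 arrays. The measured treated and untreated levels thus chose the lymphomas, and the values of the 6 ranking genes below are a description with no test. Because the lymphomas were ranked on the same contrast, the calls in it describe these 6 lymphomas, and the difference from the remaining 6 was not tested.

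The study profiled total RNA of mouse lymphomas on Affymetrix arrays, once untreated and once after ADR in each of the 12 lymphomas. The cells were primary B-cell lymphomas from lymph nodes of Emu-myc mice, in which a c-Myc transgene is active in the B lineage. All of them carried Bcl2, an inhibitor of apoptosis, from a retrovirus, had been selected in puromycin for 48 h, and grew on NIH 3T3 fibroblasts irradiated with 20 Gy. The treated cultures received 0.05 µg/ml Adriamycin (ADR, doxorubicin) in vitro for 5 days, and the untreated cultures did not. No group without Bcl2, without the Myc transgene or without feeder was analysed here, and ages and sexes of the mice were not given. The labels mark the treated array of lymphoma 1467 as senescence induction "yes" and the treated arrays of the other 11 lymphomas as "TIS", a difference that they do not explain.

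Doxorubicin poisons topoisomerase II and breaks DNA. Cells that cannot die by apoptosis can answer such damage with senescence, a lasting exit from the cell cycle in which retinoblastoma family proteins shut down E2F and mitotic genes, lysosomes expand and inflammatory factors are secreted. Fibroblasts of a feeder layer express matrix genes, and macrophages, which live in lymph nodes, express lysosomal and inflammatory genes; RNA of any such cells in a culture shares the array with that of the lymphoma.

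Values are the log2 expression levels that the authors deposited, where a difference of 1 is a doubling, and each gene was read from 1 probe set. A gene was called where limma's paired test, with the lymphoma as a block, gave an adjusted p under 0.05 over 18193 genes. Genes whose mean in either group was at or below 4.47, the highest median of any array, are called near the floor and get no fold. The 24 arrays had medians between 4.38 and 4.47 and correlated with each other at 0.908 to 0.992 across probe sets. Each lymphoma has its own number in the labels and was measured once per condition, so p-values measure the spread between lymphomas.

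The 6 chosen lymphomas were low in feeder RNA, not free of it. The mean change of the 6 ranking genes was -0.28 in lymphoma 1467, 0.93 in 2949, 1.32 in 3802, 1.43 in 1570, 1.73 in 6054 and 3.02 in 7050. Among the remaining lymphomas it was 3.17 in 5766, 3.53 in 3769, 4.06 in 2581, 4.18 in 3594, 5.54 in 5560 and 5.91 in 403. Lymphomas 7050 and 5766, just inside and just outside the limit, were thus 3.02 and 3.17, while 1467 was the only lymphoma of the 12 in which the mean was lower after ADR. On the untreated arrays the mean level of these genes was 4.66 to 6.57 in the 6 lymphomas and 4.49 to 6.32 in the remaining 6, and on the treated arrays it was 5.38 to 8.30 and 8.46 to 10.93.

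Fn1, fibronectin, had an untreated level of 5.87 to 8.66 (median 7.01) and an ADR level of 6.98 to 10.12 (median 8.54) in the 6 lymphomas. Lox, which cross-links collagen, had levels of 4.73 to 7.52 (median 5.94) untreated and 5.66 to 9.66 (median 7.38) after ADR. Col1a2, a chain of type I collagen, had levels of 4.76 to 7.18 (median 5.12) and 5.59 to 9.37 (median 6.47). The groups overlapped for these 3 genes, and the mean changes were 1.73, 1.62 and 1.73, against 5.21, 5.17 and 4.70 in the remaining 6 lymphomas. Bgn, a matrix proteoglycan, had a mean change of 1.68 against 5.02, while Col1a1 and Col3a1 were near the floor, with mean changes of 0.90 and 0.50 against 3.62 and 2.66. The 28 fibroblast markers that the ranking did not use gave the same 6 lymphomas the lowest mean changes, from -0.07 in 1467 to 1.85 in 7050, while the others ran from 1.97 to 4.12. Their median change was 0.72 in the 6 lymphomas and 3.19 in the other 6, and 2 of the 28 stayed at or below the floor on all 12 arrays of the 6 lymphomas. Of the 28 markers, 9 were higher in 6 of 6 lymphomas and none lower, against 25 and none in the other 6. Over all 18193 genes, 1036 were higher and 1200 lower in 6 of 6, against 2487 and 2600 in the other 6. Since the ranking used genes of the same cells, these counts are values with no test. Timp2, an inhibitor of matrix proteases, had levels of 5.79 to 7.06 (median 6.50) untreated and 6.81 to 8.86 (median 8.12) after ADR, with a mean change of 1.51, against 4.21 in the other 6. Cald1, a fibroblast and smooth muscle actin-binding protein, was near the floor when untreated and had a change of 0.10 in 1467 and 5.57 in 7050. Its mean change was 2.58, against 5.59 in the other 6.

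**Figure D1:**
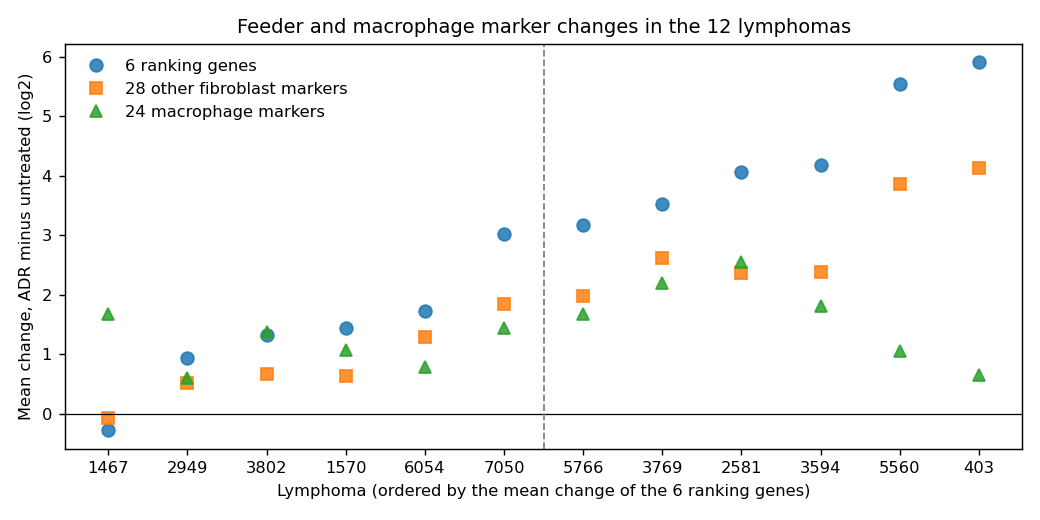
Mean ADR minus untreated change (y axis, log2) of the 6 ranking genes, of 28 other fibroblast markers and of 24 macrophage markers in each of the 12 lymphomas (x axis, ordered by the ranking genes); the dashed line separates the 6 chosen lymphomas from the others. The fibroblast markers run from near 0 in lymphoma 1467 to 4.12 in 403, while the macrophage markers lie between 0.60 and 2.54 in all 12.

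B-lineage genes stayed high in the chosen lymphomas. Of 18 measured markers, 17 had an untreated mean above the floor; the mean level of the list was 8.47 to 9.42 on the untreated and 7.90 to 9.98 on the treated arrays. Cr2, a complement receptor of mature B cells, was the marker below the floor. In bulk RNA of this kind, fewer cells of a type and less RNA per cell cannot be told apart. The median change of the B-lineage list was -0.19 (range over the 6 lymphomas -0.39 to 0.62), and Syk, a kinase of B-cell receptor signalling, was the only called member. In the remaining 6 lymphomas the median was -0.66, with 8 members called lower and none higher.

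ADR was followed by a change of 1029 genes in the 6 lymphomas (5.66% of those tested), 407 higher (2.24%) and 622 lower (3.42%). These percentages are the background for the counts of called genes in the 6 lymphomas below. For counts in the other 6 lymphomas the background is 13.6% higher and 13.7% lower, and fits that leave out a lymphoma have their own totals. Since the ranking used this contrast, nothing is read from the comparison with these percentages. Changes of at least 2-fold were found for 138 of the genes that rose and 269 of the genes that fell, and 380 and 610 of the called genes moved the same way in all 6 lymphomas. Over all genes, called or not, 1036 were higher in 6 of 6 lymphomas (5.69%) and 1200 lower (6.6%). These counts depended on single lymphomas. Without 6054, 44 genes were called higher and 74 lower; without 1570 the counts were 130 and 244, and without 7050 they were 217 and 383. Of the 69 called genes that are named by the rule for naming genes, 9 were still called without 6054, 24 without 1570 and 49 to 56 without one of the other 4, and all 69 kept their direction in each of these fits. The 9 were Clec4d, Ms4a6d, Ms4a7, Lcn2, Ifi207, Cxcl2, Csf1, Atp6v0a1 and Uhrf1. The 407 and the 69 include Lox, a ranking gene, and the fibroblast markers Timp2 and Cald1, and nothing is read from the calls of these genes. When the pairing was left out of the fit, 36 genes were called higher and 228 lower.

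Genes of mitosis fell together and by the most. All 34 measured members of the mitosis list were called lower in the 6 lymphomas and each fell 2-fold or more. The list's median change was -2.09, and that of all genes was 0.01. The median of the list was -1.84 in lymphoma 1467, -3.86 in 2949, -0.97 in 3802, -2.38 in 1570, -2.10 in 6054 and -1.46 in 7050. Lymphoma 2949 had the deepest fall and 3802 the shallowest, and both had a small change of the ranking genes. In 1467, where the mean of the ranking genes did not rise, the mitotic genes were close to the middle of the 6. Among called genes that fell in 6 of 6 lymphomas, the 12 largest falls were Kif11, Spag5, Ccnb2, Aspm, Bub1, Kif20a, Esco2, Aurkb, Ube2c, Cenpf, Nusap1 and Ttk. Their products act in spindle assembly, kinetochores, sister chromatid cohesion and mitotic exit.

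Kif11, the kinesin that pushes spindle poles apart, had an untreated level of 8.55 to 9.16 (median 8.93) and an ADR level of 3.49 to 7.86 (median 6.41). The groups did not overlap, and the level after ADR was 6.70-fold lower (log2 change -2.74, SE 0.47, n = 6 pairs, limma adjusted p = 0.0184). Ccnb2, cyclin B2, which activates the mitotic kinase Cdk1, had levels of 9.0 to 10.45 (median 10.04) and 5.31 to 9.24 (median 7.41). Here the treated level of lymphoma 3802 lay within the untreated range, and the fall was 5.5-fold (log2 change -2.46, SE 0.44, limma adjusted p = 0.0209). Cenpf, a kinetochore protein, had levels of 7.89 to 9.05 (median 8.64) and 4.45 to 7.26 (median 6.30), without overlap, and fell 4.98-fold (log2 change -2.32, SE 0.41, limma adjusted p = 0.0203). Aurkb, the kinase that corrects spindle attachments, was 8.69 to 10.01 (median 9.20) untreated and 4.76 to 8.56 (median 6.94) after ADR, again without overlap, with a log2 change of -2.34. Bub1, a spindle checkpoint kinase, was 10.00 to 10.74 (median 10.17) and 5.79 to 8.80 (median 8.24), a log2 change of -2.44. Mki67, the Ki-67 proliferation antigen, fell 4.80-fold, from 10.59 to 11.01 (median 10.89) to 6.68 to 9.84 (median 8.71), a log2 change of -2.26 (limma adjusted p = 0.016). Non-overlapping groups with the lower level after ADR were found for 251 genes in all (1.38%).

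Each of the other named mitotic genes fell in 6 of 6 lymphomas. Spag5, a spindle protein, had a log2 change of -2.53, Aspm, a spindle pole protein, -2.45, and Kif20a, a kinesin of the central spindle, -2.39. Esco2, which acetylates cohesin, changed by -2.38, Ube2c, a ubiquitin-conjugating enzyme of mitotic exit, by -2.32, Nusap1, a spindle microtubule protein, by -2.31, and Ttk, a spindle checkpoint kinase, by -2.31. Their changes in 2949 lay between -4.24 and -5.0, and in 3802 between -0.46 and -1.10. The calls in this list depended on single lymphomas: without 6054 limma called 4 of the 34 members, without 1570 it called 11, and with the 4 lowest-ranked lymphomas alone it called 0. All 34 members were lower at an unadjusted p under 0.05 in each of these 3 fits, and the median of the list was -2.11, -2.05 and -2.28. The names of the treated array files use 1 of 2 words, DOX or sen; the median of the list was -2.09 in the 4 lymphomas named the first way and -2.06 in the 2 named the second way, 1467 and 1570.

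**Figure D2:**
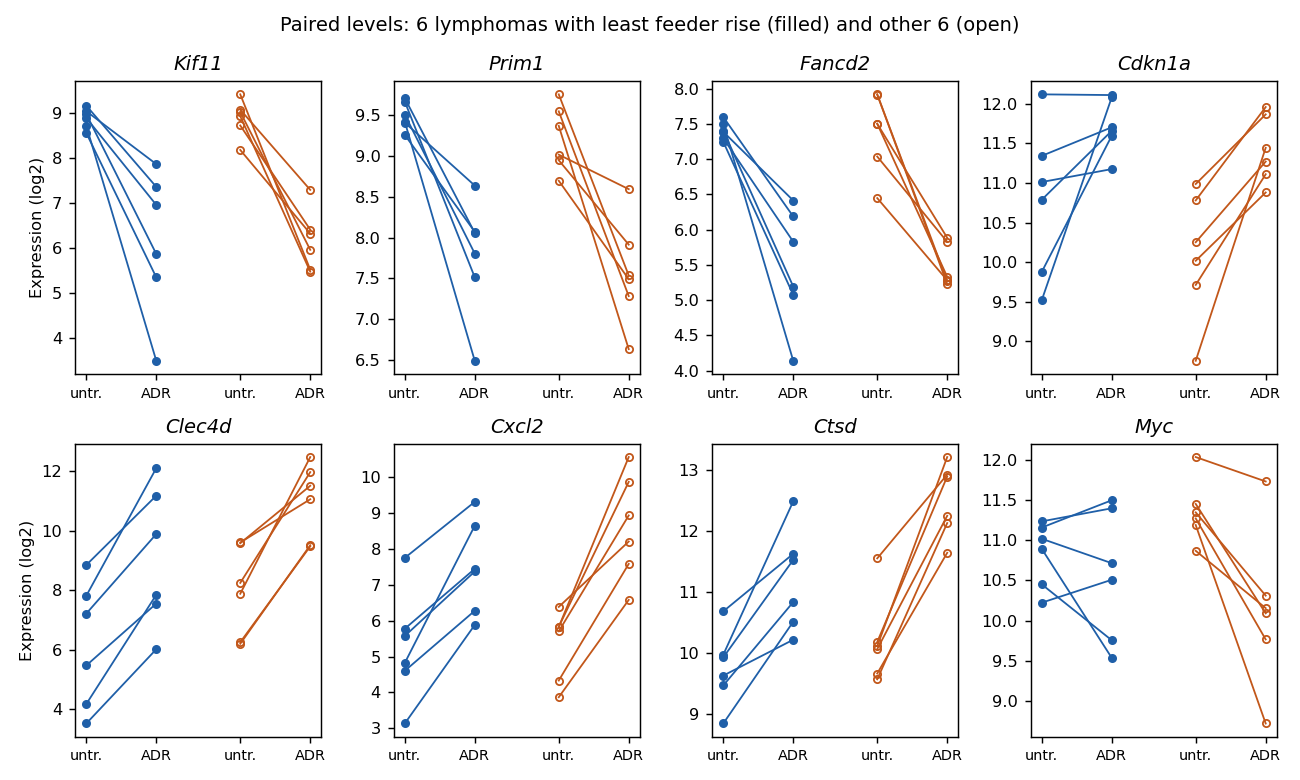
Expression level (y axis, log2) of 8 genes on the untreated and ADR arrays, with a line joining the arrays of 1 lymphoma; filled points are the 6 lymphomas with the least feeder RNA and open points the other 6. Kif11, Prim1 and Fancd2 fall without overlap in the 6 lymphomas, and Clec4d, Cxcl2 and Ctsd rise in every pair from widely spread levels. In the 6 lymphomas Cdkn1a changes by -0.01 to 2.56 and Myc by -1.36 to 0.34. In the other 6, Cdkn1a rises and Myc falls in every pair.

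Promoters of the mitotic genes are shown because a pair of short motifs, the CHR element of cell cycle genes and the CCAAT box bound by NF-Y, recurred in the set that fell the most. Windows from 250 bases before to 50 bases after the transcription start were taken from RefSeq (GRCm38.p6), which gave a window for 30 of the 34 mitosis genes and for 14452 of all measured genes. The letters TTTGAA (CHR) were present on either strand in 23 of the 30 windows (76.7%), against 1929 of 14452 (13.3%), and CCAAT in 22 (73.3%), against 5521 (38.2%). Both were present in 20 of the 30 windows (66.7%) and in 776 of all windows (5.37%). Of the 12 genes with the largest falls, 9 had a window, of which 7 held the CHR letters and 8 a CCAAT. Of the 12 genes with the largest rises, 10 had a window, of which 1 held the CHR letters and 4 a CCAAT. In the windows of the DNA replication genes and of the p53 targets, both described below, CCAAT was present in 57.1% each. The CHR letters were present there in 10.7% and 9.52%. The 3 windows below are printed 5′ to 3′ along the gene, with capitals for TTTGAA and CCAAT on either strand (TTCAAA and ATTGG where the motif lies on the opposite strand). They belong to Kif11 at chr19:37376132-37376431 on the plus strand, Ccnb2 at chr9:70421505-70421804 on the minus strand and Cenpf at chr1:189688037-189688336 on the minus strand.
Kif11: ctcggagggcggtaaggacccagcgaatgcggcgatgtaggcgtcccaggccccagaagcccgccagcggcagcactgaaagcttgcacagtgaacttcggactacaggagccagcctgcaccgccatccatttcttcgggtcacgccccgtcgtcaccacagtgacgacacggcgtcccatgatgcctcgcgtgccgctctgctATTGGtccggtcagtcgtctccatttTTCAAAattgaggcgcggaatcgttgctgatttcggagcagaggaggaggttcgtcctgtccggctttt
Ccnb2: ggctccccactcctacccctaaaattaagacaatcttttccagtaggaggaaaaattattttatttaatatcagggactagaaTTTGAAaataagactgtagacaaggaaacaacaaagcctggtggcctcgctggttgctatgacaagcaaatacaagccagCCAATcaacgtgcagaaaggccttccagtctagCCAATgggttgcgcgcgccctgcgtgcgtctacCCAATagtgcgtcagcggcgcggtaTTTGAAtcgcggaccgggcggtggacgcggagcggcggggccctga
Cenpf: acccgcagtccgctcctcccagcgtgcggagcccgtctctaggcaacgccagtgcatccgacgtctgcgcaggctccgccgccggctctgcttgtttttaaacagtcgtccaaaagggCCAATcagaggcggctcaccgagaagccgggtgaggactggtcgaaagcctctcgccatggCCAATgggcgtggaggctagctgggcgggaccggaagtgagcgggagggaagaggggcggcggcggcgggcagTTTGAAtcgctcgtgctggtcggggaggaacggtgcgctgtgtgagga
In Kif11 the CCAAT starts 45 and the CHR 19 bases before the transcription start. Ccnb2 holds 3 CCAAT and 2 CHR matches, of which 1 CHR lies at position 4, just downstream of the start, and Cenpf has its CHR at position 2. These matches are letters in a window, and no binding was measured here.

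Genes of DNA replication fell as well, less deeply than the mitotic genes. Of 33 measured members, 26 were called lower and none higher, 20 of the called members fell at least 2-fold, and the median change was -1.25. The 3 called members with the largest falls were Prim1, the primase that starts each DNA strand, Rrm1, the large subunit of ribonucleotide reductase, and Pola1, the catalytic subunit of polymerase alpha. Prim1 had levels of 9.26 to 9.71 (median 9.46) untreated and 6.49 to 8.64 (median 7.93) after ADR, without overlap, and fell 3.32-fold (log2 change -1.73, SE 0.25, limma adjusted p = 0.0125). Rrm1 went from 9.82 to 10.88 (median 10.28) to 7.63 to 10.27 (median 8.43), with overlapping groups and a log2 change of -1.73. Pola1 went from 7.84 to 8.85 (median 8.34) to 5.07 to 7.62 (median 6.80), without overlap, with a log2 change of -1.71. By lymphoma the median of the list ran from -0.56 in 3802 to -1.88 in 1570, and in 1467 it was -0.85. The E2F letters TTTCCCGC or TTTGGCGC, on either strand, were found in 9 of 28 replication windows (32.1%), in 364 of 14452 windows of all genes (2.52%) and in none of the 30 mitosis windows.

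DNA repair and checkpoint genes followed, with 17 of 23 members called lower, none higher, and a median change of -0.93. Fancd2, the central protein of the Fanconi pathway, had levels of 7.25 to 7.60 (median 7.40) untreated and 4.14 to 6.41 (median 5.51) after ADR. The groups did not overlap and the fall was 3.82-fold (log2 change -1.93, SE 0.28, limma adjusted p = 0.0125). Brca1, which acts in homologous recombination, went from 7.98 to 8.66 (median 8.26) to 4.62 to 7.06 (median 6.86), a log2 change of -1.83, and the change of -3.70 in 2949 stood apart from -0.93 to -1.82 in the other 5. Without lymphoma 6054 limma called 3 of the replication genes and 1 of the repair genes, and without 1570 it called 15 and 5; without 7050, 7 of the repair genes were called. At an unadjusted p under 0.05, 32 of the 33 replication genes and 20 of the 23 repair genes were lower, against 1638 of all 18193 genes.

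Genes of the nuclear lamina and chromatin fell where they were called, with 1 exception. Of 25 members, 11 were called lower and 1 higher, and 14 were lower and 1 higher in 6 of 6 lymphomas. The median change was -0.51, with a range over the lymphomas of -1.07 to -0.29. Hmgb2, a chromatin-bending protein of dividing cells, fell 3.58-fold, from 11.19 to 12.24 (median 11.64) to 8.67 to 11.45 (median 9.79), with a log2 change of -1.84 (SE 0.29, limma adjusted p = 0.0151). Uhrf1, which directs maintenance DNA methylation, went from 9.01 to 10.27 (median 9.72) to 6.78 to 8.88 (median 8.34) without overlap, a log2 change of -1.50, and Hmgb3 changed by -1.35. Hmga2, a chromatin protein linked to senescence foci and also abundant in embryonic fibroblasts, was the member called higher. It rose by 1.75, from 4.67 to 6.02 (median 5.45) to 5.60 to 8.49 (median 6.96). Its change was 0.92 in 1467, 1.04 in 2949, 1.46 in 3802, 1.69 in 1570, 2.47 in 6054 and 2.93 in 7050, the same order as that of the ranking genes, and 4.54 on average in the other 6 lymphomas; the part of feeder RNA in it was not tested. Lmnb1, lamin B1, whose loss is a mark of senescence, was lower in 6 of 6 lymphomas but not called, at -0.98 (limma adjusted p = 0.0926), from 7.45 to 9.61 (median 8.73) to 6.73 to 9.43 (median 7.24). The other of its 2 probe sets was called lower. In the remaining 6 lymphomas Lmnb1 fell by 2.18 on the log2 scale. Without 6054, 4 members of this list were called lower, and without 1570 there were 7.

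Arrest regulators showed no common course. Cdkn1a, the p21 inhibitor of cyclin-dependent kinases and a p53 target, had levels of 9.52 to 12.12 (median 10.90) untreated and 11.18 to 12.11 (median 11.68) after ADR. The groups overlapped, the change of 0.95 was not called (SE 0.33, limma adjusted p = 0.162), and it ran from -0.01 in 2949, the lymphoma with the deepest mitotic fall, to 2.56 in 1570. Cdkn1a was higher in 5 of the 6 and in each of the other 6 lymphomas, where its mean change of 1.34 was called (limma adjusted p = 0.0051). Cdkn2a and Cdkn2b, which encode p16/p19Arf and p15, were near the floor by their means, with treated levels of at most 4.32 and 6.83. In 1570 Cdkn2b lay above the floor on both arrays, at 5.49 untreated and 6.83 after ADR. Over the 6 lymphomas it was higher in 3 and lower in 3. Of 17 CDK inhibitors and related genes, Ccnd1, cyclin D1, was called higher (0.83, limma adjusted p = 0.0479), and Rbl1, the retinoblastoma family member p107, lower (-1.10). Ccnd1 changed by 1.67 in 1467 and by 0.10 in 7050, and it was called in 1 of the 6 fits that left out a lymphoma, the one without 7050, with changes of 0.66 to 0.97. Among 29 p53 targets, 1 was called higher and 1 lower, with a median of 0.51 and a range over lymphomas from -0.33 in 2949 to 1.41 in 1570. Xpc, a sensor of damaged DNA in nucleotide excision repair, rose 1.42-fold, from 6.38 to 6.87 (median 6.63) to 6.71 to 7.58 (median 7.16), a log2 change of 0.51 (limma adjusted p = 0.0285). Ddb2, a partner of Xpc in that repair, fell 2.81-fold, from 6.08 to 8.82 (median 7.27) to 5.22 to 6.16 (median 5.81), a log2 change of -1.49 (SE 0.25, limma adjusted p = 0.0172), and was lower in 6 of 6 lymphomas. Its change was -1.25 to -1.72 when 1 lymphoma was left out, called except without 1570 or 6054. In the other 6 lymphomas Ddb2 had a change of -0.66 and Xpc of 0.20, neither of them called.

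Macrophage genes rose, and myeloid receptors are among the largest rises. Of 24 macrophage markers, 9 were called higher and none lower, 15 were higher in 6 of 6 lymphomas, and the median change was 1.06. The mean level of the list was 5.07 to 7.29 on the untreated and 6.14 to 8.69 on the treated arrays, and 2 of the 24 markers stayed at or below the floor on all 12 arrays. The mean change per lymphoma was 1.68 in 1467, 0.60 in 2949, 1.37 in 3802, 1.07 in 1570, 0.78 in 6054 and 1.45 in 7050, so the lymphoma with the lowest change of the feeder genes, 1467, had the highest change of the macrophage markers among the 6. All cultures had passed puromycin selection, and the source of this RNA was not tested. Clec4d, a C-type lectin receptor of myeloid cells, had the largest rise among called genes that rose in 6 of 6 lymphomas. It went from 3.51 to 8.85 (median 6.34) to 6.01 to 12.11 (median 8.87). The groups overlapped because the lymphomas started far apart, but each pair rose by 2.09 to 4.30, and the mean was 7.63-fold higher (log2 change 2.93, SE 0.29, limma adjusted p = 0.00902). Csf1r, the receptor of the macrophage growth factor CSF1, rose 3.83-fold, from 5.07 to 9.61 (median 7.96) to 6.63 to 11.55 (median 9.78), a log2 change of 1.94 (SE 0.25, limma adjusted p = 0.0108). Clec4e, another C-type lectin receptor, rose by 2.06, with 3.92 in 7050 above 1.27 to 2.16 in the other 5. Without 6054 limma called 1 of the 24 markers, without 1570 it called 4, without 7050 it called 5, and without 1467 it called 6; between 14 and 17 were higher at an unadjusted p under 0.05 in these fits.

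Of the 12 largest rises, Clec4d, Ms4a6d, Clec4a3, Cald1, Ahnak2, Ms4a7, Cxcl2, Lcn2, Acod1, Clec4e, Maf and Ifi207, several are myeloid genes outside the marker list. Cald1 is the fibroblast marker near the floor given above, and 0 of its 5 probe sets were called when all probe sets were fitted. Ms4a6d, a membrane protein of myeloid cells, rose 7.32-fold, from 3.71 to 8.57 (median 6.68) to 7.25 to 11.47 (median 9.04), a log2 change of 2.87 (SE 0.32, limma adjusted p = 0.00902). Clec4a3, a C-type lectin-like receptor, rose by 2.82, with 5.32 in 1467 and 1.22 in 2949, and Ms4a7, of the same family as Ms4a6d, rose by 2.25. Acod1, which makes itaconate in activated macrophages, rose by 2.18 on average, from 0.05 in 3802 to 4.26 in 1467. Lcn2, lipocalin 2, which binds bacterial siderophores, rose by 2.19 and was the only called gene of 11 neutrophil markers, 6 of which stayed at or below the floor on all 12 arrays; the list had a median of 0.06. Ahnak2, a large scaffold protein, rose 5.59-fold, from 4.44 to 6.92 (median 5.34) to 6.77 to 8.97 (median 7.99), a log2 change of 2.48. None of 14 T and NK cell markers was called by limma (1 had an unadjusted p under 0.05, and 7 of the 14 stayed at or below the floor on all 12 arrays), and their median change was 0.03. Klrd1, near the floor, and Cd8a had the largest changes, -0.30 and 0.17.

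Secreted factors rose in part. Of 41 factors linked to the senescent secretome, 6 were called higher and none lower, and the median change was 0.52, with 1.13 in lymphoma 7050 and 0.05 to 0.42 in the other 5. Cxcl2, a neutrophil-attracting chemokine, rose 4.61-fold, from 3.14 to 7.74 (median 5.20) to 5.88 to 9.30 (median 7.40), a log2 change of 2.21 (SE 0.30, limma adjusted p = 0.0108), and it was higher in 6 of 6 lymphomas. Csf1, the macrophage growth factor, rose by 1.08 to 1.88 in every pair, from 6.35 to 7.53 (median 6.92) to 7.43 to 9.41 (median 8.46), which is 2.87-fold (log2 change 1.52, SE 0.13, limma adjusted p = 0.00902). All 4 probe sets of Csf1 were called higher. Cxcl5, a chemokine near the floor when untreated, rose by 1.79, with 0.28 in 1467 and 3.19 in 7050, and by 5.96 in the other 6 lymphomas. Il6, an interleukin of the senescent secretome, was 4.07 to 8.48 (median 6.10) untreated and 4.67 to 8.94 (median 7.18) after ADR. Its change of 0.85 was not called (limma adjusted p = 0.385), ran from -0.76 in 3802 to 2.55 in 7050, and was 2.16 in the other 6. Without 6054, 3 of the secreted factors were called, and without 1570 or without 7050 there were 4.

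Of 19 NF-kB subunits and targets limma called 1, Rela, the p65 subunit, which rose 1.44-fold (log2 change 0.53, limma adjusted p = 0.0272), and the median was 0.20. Of 13 AP-1 family genes, 3 were called higher. They were Maf, by 2.02, from 2.88 to 8.87 (median 5.19) to 4.53 to 10.45 (median 7.32); Fosl1, near the floor when untreated, by 0.85; and Atf3, a stress-induced factor, by 0.65, with 1.48 in 7050 and 0.34 to 0.65 in the other 5. Maf is also a transcription factor of macrophages, and its changes of 3.49 in 1467 and 3.51 in 3802 were the largest.

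Of 27 interferon response genes, 7 were called higher and none lower, and the median change was 0.64. By lymphoma the median was above 0 in 5 of the 6 and -0.09 in 2949. Cmpk2, a mitochondrial nucleotide kinase induced by interferon, rose 2.34-fold, from 4.01 to 5.47 (median 5.12) to 4.59 to 7.60 (median 6.46), a log2 change of 1.23 (SE 0.19, limma adjusted p = 0.014). Ifit1 and Oasl2, antiviral effectors, were near the floor when untreated and rose by 1.65 and 1.62. Ifi207, an interferon-induced gene of the p200 family outside the list, also near the floor, rose by 1.99 in the mean and by 0.80 to 2.53 in the pairs. Without 6054 limma called 0 of the 27 members, 18 of them being higher at an unadjusted p under 0.05; without 1570 it called 2, without 1467 or without 7050 it called 3, without 3802 it called 4, and without 2949 it called 12. The macrophage markers given above were higher after ADR in the same lymphomas, and their part in these rises was not tested.

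Of 34 lysosomal genes, 10 were called higher and none lower, 15 were higher in 6 of 6 lymphomas, and the median change was 0.54, from 0.15 in 2949 to 1.05 in 7050. Ctsd, the protease cathepsin D, rose 2.72-fold, from 8.85 to 10.68 (median 9.78) to 10.22 to 12.48 (median 11.18), a log2 change of 1.44 (SE 0.22, limma adjusted p = 0.0145). Ctsl, cathepsin L, rose by 1.24. Atp6v0a1, which encodes part of the vacuolar ATPase, the lysosome's acid pump, rose 2.19-fold, from 5.96 to 6.66 (median 6.29) to 6.56 to 8.14 (median 7.61), a log2 change of 1.13 (SE 0.13, limma adjusted p = 0.00902), and only 1 of its 4 probe sets was called. Glb1, the beta-galactosidase behind the senescence stain, was higher in 6 of 6 lymphomas by 0.11 to 0.50, a mean of 0.30 that was not called (limma adjusted p = 0.0947), with levels of 7.27 to 8.44 (median 8.10) and 7.38 to 8.78 (median 8.42). The mean macrophage and fibroblast marker changes were 1.45 and 1.85 in 7050 and 0.60 and 0.51 in 2949, and their part in the lysosomal changes was not tested. The number of called members was 2 without 6054, 4 without 1570, 5 without 7050 and 6 without 1467.

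Of 26 autophagy genes 2 were called, both higher, and the median was 0.17. Sqstm1, the cargo receptor p62, rose 1.93-fold, from 9.57 to 10.85 (median 10.21) to 10.29 to 12.15 (median 11.10), a log2 change of 0.95 (limma adjusted p = 0.0163). Map1lc3b, the autophagosome protein LC3B, rose 1.32-fold by its probe set with the highest mean, a log2 change of 0.40 (limma adjusted p = 0.0396), while its probe set with the largest variance had a change of -0.14. Hmox1, heme oxygenase, rose 2.2-fold (log2 change 1.14, limma adjusted p = 0.0223) and was the only called gene of 13 antioxidant and iron storage genes.

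Metabolic genes fell where they were called. Of 20 cholesterol synthesis genes 4 were called lower and none higher, with a median of -0.65 that ran from -0.01 in 3802 to -1.48 in 1570 and 7050. Fdps, farnesyl diphosphate synthase, fell 2.76-fold, from 8.21 to 11.46 (median 9.74) to 7.31 to 10.06 (median 8.14), a log2 change of -1.47 (SE 0.34, limma adjusted p = 0.0479). When all probe sets were fitted, 0 of the 2 probe sets of Fdps were called. Pmvk, phosphomevalonate kinase, fell by 1.05 on the log2 scale, and Srebf2, the transcription factor that drives the pathway, by 0.86. Tm7sf2, a sterol reductase and the fourth, had a log2 change of -0.85 and is named after its value was seen. Of 28 genes of the TCA cycle and respiration 2 were called lower, while 8 were lower and none higher in 6 of 6 lymphomas. The called genes were Fh1, fumarase, which fell by 0.59, and Idh2, the mitochondrial isocitrate dehydrogenase, also by 0.59 on the log2 scale. The list median was -0.19. Of 20 glycolysis genes 3 were called lower, namely Aldoc (-1.32), Pdk1 (-0.66) and Pfkm (-0.64), with a list median of -0.34.

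Myc and its targets differed from lymphoma to lymphoma. Myc, whose transgene drives these tumours, had levels of 10.22 to 11.23 (median 10.96) untreated and 9.54 to 11.50 (median 10.61) after ADR. The groups overlapped, and the change of -0.26 was not called (SE 0.23, limma adjusted p = 0.628). It was 0.16 in 1467, 0.28 in 2949, 0.34 in 3802, -0.30 in 1570, -0.70 in 6054 and -1.36 in 7050, so that 3 lymphomas lay above 0 and 3 below. The 30 genes of ribosome biogenesis and other MYC targets had a median change of 0.01, with 0.59 in 1467, 0.72 in 2949 and -0.88 in 7050. The only called member was Tfrc, the transferrin receptor, which fell by 0.79 on the log2 scale. In the other 6 lymphomas Myc fell by 1.23 on the log2 scale, 22 of the 30 targets were called lower, and their median was -0.57. The 3 lymphomas in which Myc lay below 0 had the largest changes of the ranking genes among the chosen 6. The part of feeder RNA in the changes of Myc and its targets was not tested. Of 10 genes of the MYC network 1 was called, Mxd3, a MAX-binding repressor expressed in S phase, which fell by 0.55 on the log2 scale with -0.48 to -0.66 in the single lymphomas.

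Survival genes gave 1 call. Bcl2l11, which encodes the pro-apoptotic protein Bim, rose 1.55-fold among 14 genes of the BCL2 family, from 10.48 to 11.17 (median 11.04) to 11.24 to 11.75 (median 11.55). The groups did not overlap, and the log2 change was 0.63 (SE 0.13, limma adjusted p = 0.0308), with 2 of its 5 probe sets called higher. Its change was 0.55 to 0.73 when 1 lymphoma was left out, and it was called in 1 of these fits, the one without 2949. Groups that did not overlap and were higher after ADR were found for 65 genes (0.357%). Bcl2 had levels of 11.35 to 12.55 (median 11.82) untreated and 9.75 to 12.01 (median 11.35) after ADR, lower in 6 of 6 lymphomas, with a change of -0.77 that was not called (limma adjusted p = 0.172). Which of the endogenous and the introduced copies of Myc and Bcl2 the probe sets read is not given in the sources used here. Syk, the called B-lineage gene, had levels of 8.30 to 9.96 (median 9.53) and 10.04 to 11.20 (median 10.36), without overlap, a log2 change of 1.20 (SE 0.22, limma adjusted p = 0.0216). It is also expressed in macrophages, and its probe set with the largest variance had a change of -0.24. Vpreb3, a chaperone of the immature B-cell receptor, fell by 1.12 on the log2 scale and was the only called gene of 12 pre-B and recombination genes.

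Antigen presentation genes were not called. Of 10 MHC class II genes and 12 MHC class I genes limma called 0 in either direction, with medians of -0.21 and 0.13. At an unadjusted p under 0.05 there were 2 and 4 members, against 3443 of all 18193 genes. H2-Ob, a chaperone of class II loading, had a change of -0.60 (limma adjusted p = 0.223) and H2-Aa, a class II chain, of -0.56, from -2.18 in 2949 to 1.02 in 3802. Nlrc5, the activator of class I genes, had a change of 0.75 (limma adjusted p = 0.163) and Tapbp, tapasin, of 0.41.

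**Figure D3:**
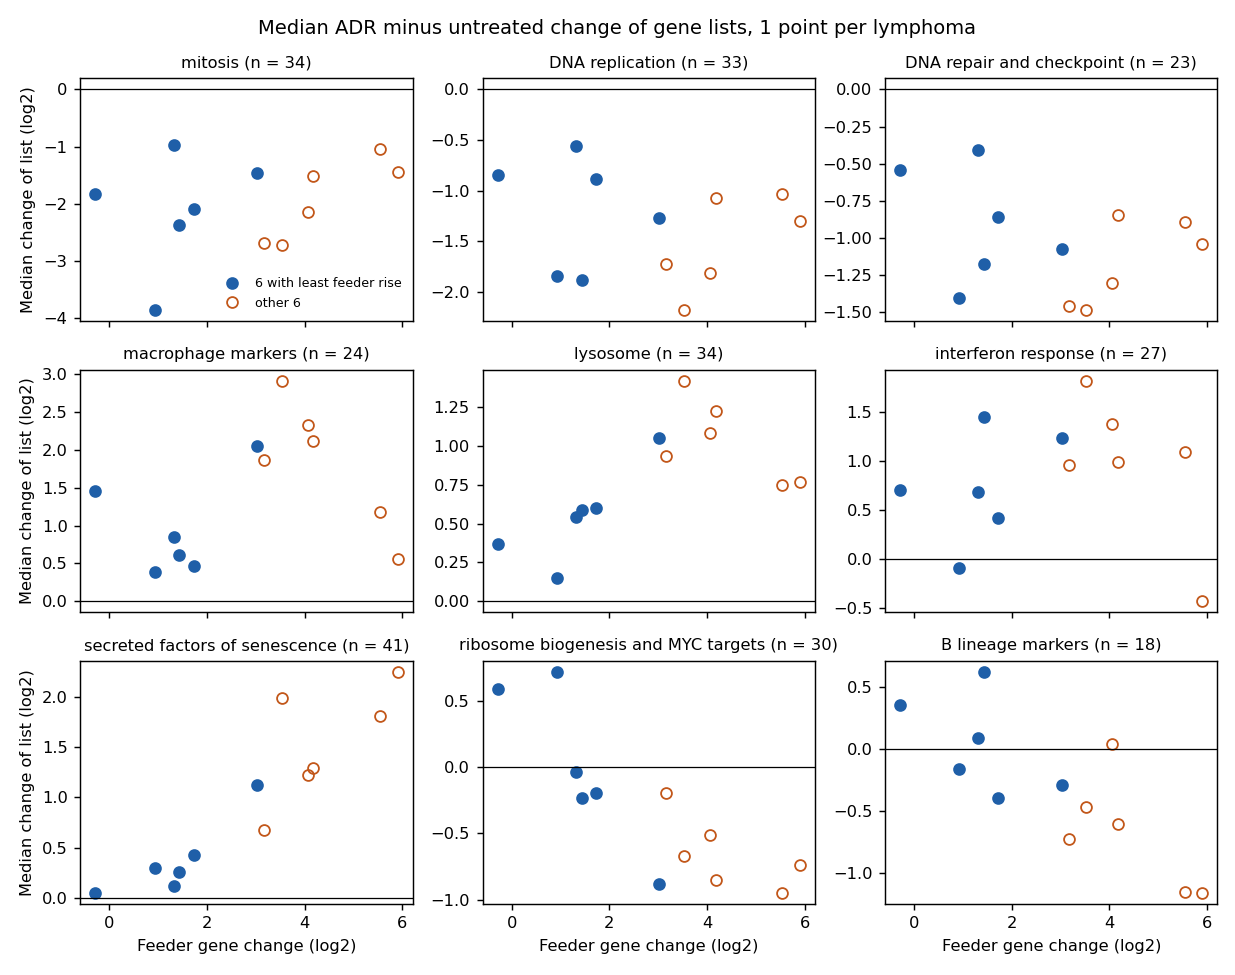
Median ADR minus untreated change of 9 gene lists (y axis, log2) against the mean change of the 6 ranking genes (x axis, log2), 1 point per lymphoma, filled for the 6 lymphomas with the least feeder RNA and open for the other 6. The mitosis median is below 0 in all 12 lymphomas, and in the chosen 6 the ribosome and MYC target median runs from 0.72 to -0.88.

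Set beside the remaining 6 lymphomas, the proliferation lists had close medians, and the macrophage, lysosomal and secreted lists had higher medians there. In those 6 lymphomas 4977 genes were called (27.4%), 2480 higher (13.6%) and 2497 lower (13.7%). Of the 407 genes called higher in the chosen 6, 330 were called higher there too, which is 81.1% of the 407 and 13.3% of the 2480. Of the 622 called lower, 542 were called lower there, which is 87.1% of the 622 and 21.7% of the 2497, and none was called in the opposite direction. The mitosis list had 33 of 34 members called lower and a median of -1.98, beside -2.09 in the chosen 6, and Kif11 had a change of -2.73 beside -2.74. For DNA replication the medians were -1.58 and -1.25, and for DNA repair -1.04 and -0.93, in that order. The macrophage markers had a median of 1.94 there and 1.06 in the chosen 6, with 17 and 9 called higher, the lysosome list 1.01 and 0.54, with 25 and 10, and the secreted factors 1.55 and 0.52, with 27 and 6. Among the p53 targets, 13 were called higher and 2 lower there, although the medians were 0.47 and 0.51. The genes called higher in the chosen 6 had a median change of 0.81 in them and of 1.20 in the others, and those called lower -0.88 and -1.03. Since the sets were separated by their own response, these are values side by side, and no difference between the sets was tested.

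**Figure D4:**
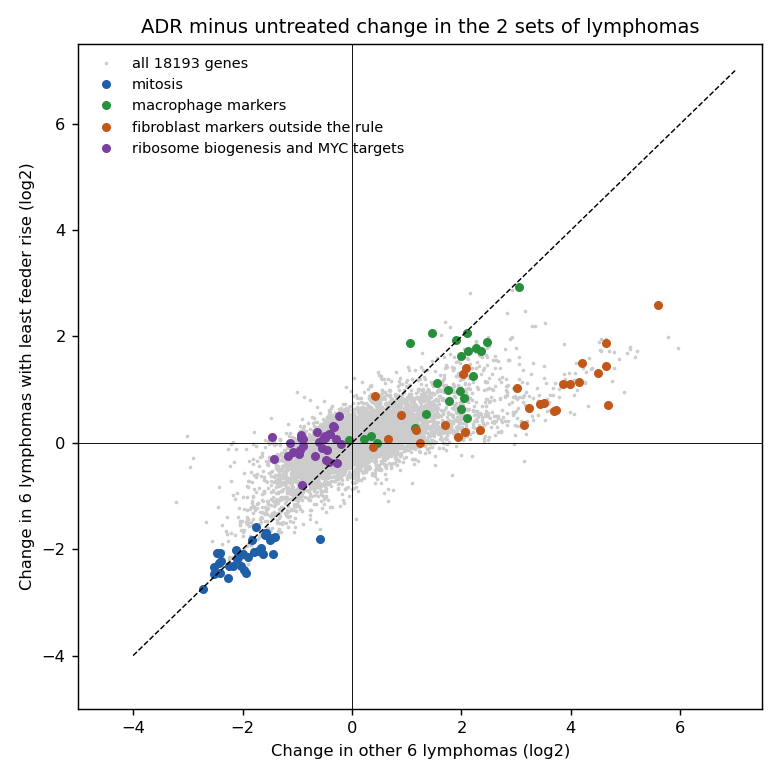
ADR minus untreated change (log2) of 18193 genes in the 6 lymphomas with the least feeder RNA (y axis) against the other 6 (x axis); 4 gene lists are coloured and the dashed line marks equal change. The mitosis genes lie near the dashed line, with medians of -2.09 and -1.98, while the fibroblast markers outside the ranking lie far below it, with medians of 0.72 and 3.19.

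Before treatment no gene was called between the sets. Among the 12 untreated arrays limma called 0 of 18193 genes (0%) between the chosen 6 and the remaining 6; 1016 genes had an unadjusted p under 0.05 (5.58%), and the lowest adjusted p was 0.154. The median difference, chosen 6 minus the others, was 0.17 for the mitosis list, -0.38 for the macrophage markers, -0.35 for the interferon list, 0.48 for MHC class II and 0.32 for the p53 targets. Without lymphoma 5766, 2 genes were called higher and 3 lower.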

How the data were processed

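Total RNA of 12 lymphomas was measured on 24 Affymetrix arrays, untreated and after ADR. The deposited values are log2 expression levels made by the authors with RMA and Partek, per the submitters' processing notes; versions and settings are not given in the sources used here. Of 45101 probe sets, 34945 had 1 gene symbol in GEO's annotation, 932 several and 9160 none, and 64 were controls; 34741 were matched to RefSeq by Entrez number. Each of 18193 genes was read from 1 probe set, the brightest of those with a single symbol by its 24-array mean. Arrays carry no read depth, so precision is limited by their number and by the floor of the signal.

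ADR was compared with untreated by limma 3.58.1 in R 4.3.3 (lmFit and eBayes), with the lymphoma as a block and Benjamini-Hochberg adjustment over all genes; the sets were compared among untreated arrays without a block. The pairing comes from the lymphoma numbers in the labels: arrays of 1 lymphoma deviated together from their group means (correlation 0.267 to 0.595, above 0.1 in 12 of 12 pairs). In 10 of the 12 lymphomas the untreated array correlated best with its own treated array, and in the rest with that of another lymphoma. The procedure was tested on simulated data in which each gene varied independently, and no result here rests on that test. Alternatives were the fit without the block, quantile normalization, centring, other probe set rules, a filter on low values, a mean-variance trend, a fit over 24 arrays, leaving out each lymphoma, other numbers of lymphomas, marker levels as covariates and the naming of the array files.

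The ranking genes, the 28 gene lists (591 of 636 entries measured) and the tests were chosen with earlier results of these data known. Genes named are fixed anchors, the 12 largest rises and falls among called genes that moved the same way in 6 of 6 lymphomas, and, per list, up to 3 called members that moved most in the prevailing direction plus the strongest opposite call; lists without a call give their 2 biggest shifts. List members without a single-gene probe set were not analysed here. One gene that the rule names is not reported here.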

Additional observations from a re-analysis of the deposited data

Results flagged for a closer look

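In 5 quantities of the 106 checked, 1 of the 6 lymphomas lay far from the other 5. Chance alone gives such a gap in about 1 of 20 groups, so this number is no more than chance gives. In lymphoma 7050 the median change of the secreted factors was 1.127, against 0.05 to 0.42 in the rest. The change of Clec4e, the myeloid lectin receptor, was 3.915 in 7050, against 1.27 to 2.16, and that of Atf3, the stress-induced factor, was 1.479, against 0.34 to 0.65. In lymphoma 1570 the median change of the BCL2 family was 0.4296, against 0.05 to 0.11 elsewhere. Brca1 had a change of -3.697 in lymphoma 2949, against -1.82 to -0.93.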

How the results depend on the processing

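In the 6 lymphomas, 407 genes were called higher and 622 lower. Quantile normalization, centring, other probe set rules, a filter on low values, a mean-variance trend and a fit over all arrays each kept both counts within 1.5 times. The called genes were not all the same. Of the 69 named called genes, 53 were still called with the largest-variance probe set, 58 with the mean of all probe sets and 61 in the fit over all arrays. Quantile normalization and centring each kept 68, the trend 65, and the filter 64 of the 65 it tested. Pairing mattered: without the lymphoma block 36 genes were called higher and 228 lower, and in the other 6 lymphomas, where the paired fit called 2480 and 2497, the fit without the block called 1704 and 1751. Leaving out 1 lymphoma gave 44 to 366 genes higher and 74 to 521 lower, lowest without 6054. The 4 lowest-ranked lymphomas gave 0 in either direction (2532 at an unadjusted p under 0.05), and the 8 lowest gave 1302 and 1368. Adding the ranking gene mean of each array to the fit left 37 higher and 52 lower calls, and adding the macrophage marker mean left 0 (1252 unadjusted). Of the 69 named called genes, 20 were still called without the block, 1 with the ranking gene mean added and 0 with the macrophage marker mean added. Within the DOX and the sen array names limma called 0 each (2816 and 2423 unadjusted); fewer samples enter these fits. Among untreated arrays, without 5766, 2 genes were called higher and 3 lower, against 0 otherwise. With the macrophage covariate, which moves with treatment, the direction turned for the macrophage list median (-0.2172, set by construction, since its own mean is removed), the interferon list median (-0.3490), Clec4a3 (-0.7597), Maf (-0.7007), Ifit1 (-0.4924) and Oasl2 (-0.7163), and with the largest-variance probe set for Syk (-0.2402) and Map1lc3b (-0.1398); the cause was not tested. All 34 mitosis genes were lower at an unadjusted p under 0.05 in each alternative. Array signal near the floor limits Cdkn2a, Cdkn2b, Col1a1 and Col3a1.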

Other observations

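A few genes were called in the 6 lymphomas and had a mean change near 0 in the other 6; they were chosen after their values were seen, and the difference between the sets was not tested. Id3, an inhibitor of basic helix-loop-helix transcription factors that is often mutated in Burkitt lymphoma, fell by 1.44 on the log2 scale (limma adjusted p = 0.0151), lower in 6 of 6 lymphomas, and had a mean change of 0.06 in the other 6, of which 2 were higher and 4 lower. Pfkm, the muscle form of phosphofructokinase, fell by 0.64 on the log2 scale and had a mean of -0.02 in the others, where it ran from -1.12 to 0.93. Bcl2l11 rose by 0.63 and had a mean of 0.04 in the others, from -0.57 to 0.50. Anln, a scaffold of the cleavage furrow, was the 1 mitosis gene not called in the other 6 lymphomas, where its change was -0.59 (limma adjusted p = 0.506).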
